A study of Mus musculus with 14 samples.

Results

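The genes described here are 8 mouse genes of antigen presentation by MHC class II: H2-Aa, H2-Ab1, H2-Eb1, Cd74, H2-DMa, H2-DMb1, H2-DMb2 and Ciita. They were chosen by gene symbol among the 24675 genes that the array's annotation names, and all 8 were on the array with 1 probe set each. Of these, 7 passed the filter on low values that left 15873 genes to test. The filter level is each array's own 40th percentile, which a gene had to reach on 3 arrays or more. The 7 genes reached it on all 14 arrays, and H2-DMb2 on 2.

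The data are 14 Affymetrix Mouse Gene 2.0 ST arrays, and each value is a log2 intensity, so a difference of 1 is a doubling. Cells came from intestinal crypts of single mice and were sorted for low CD24 and for EGFP, which is driven from the Lgr5 locus. EGFP high cells (High) are named intestinal stem cells in the labels, and EGFP low cells (Low) the transit amplifying cells that come directly from them. Mice called WT carried Lgr5-EGFP-IRES-CreERT2, and mice called Atg7KO carried the same allele together with Atg7(fl/fl). All mice, WT included, received tamoxifen on each of 5 days in a row, and tissue was taken 1 month after that. The groups were WT-Low and Atg7KO-Low with 4 arrays each, and WT-High and Atg7KO-High with 3 each. CreERT2 is made only where Lgr5 is active, so deletion of Atg7, a gene needed to form autophagosomes, starts in stem cells and reaches the Low gate through their progeny. Age, sex, strain and MHC haplotype of the mice are not given in the labels. Arrays carry the group and a number from the title. Values of a group are given below in a set order of arrays. In WT-High it is WT-High-388, WT-High-411, WT-High-412, and in Atg7KO-High it is Atg7KO-High-356, Atg7KO-High-348, Atg7KO-High-386. In WT-Low it is WT-Low-341, WT-Low-407, WT-Low-409, WT-Low-411, and in Atg7KO-Low it is Atg7KO-Low-356, Atg7KO-Low-353, then Atg7KO-Low-387 and at the end Atg7KO-Low-386. There are 3 numbers that occur in both gates, so those arrays may share a mouse, which the labels do not say.

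MHC class II molecules are pairs of an alpha and a beta chain that show peptides from the endosomal pathway to CD4+ T cells. H2-Aa and H2-Ab1 encode the chains of I-A, and H2-Eb1 the beta chain of I-E. Cd74, the invariant chain, fills the groove of new molecules and leads them to endosomes, where proteases trim it to the fragment CLIP. H2-DM, made of H2-DMa with H2-DMb1 or H2-DMb2, then exchanges CLIP for peptide. Ciita does not bind DNA itself. It is the coactivator that switches these genes on together, held at their promoters by RFX, CREB and NF-Y on the X, X2 and Y boxes. Dendritic cells, B cells and macrophages make MHC class II at all times. Gut epithelium, including Lgr5 stem cells, can make it too, and interferon gamma induces it through Ciita.

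Atg7, the targeted gene, was lower on the 7 Atg7KO arrays (5.65 to 6.37) than on the 7 WT arrays (6.46 to 7.49). Array medians lay between 4.30 and 4.49. The SD of all values on an array was 1.90 to 1.98 in Atg7KO-High and 1.99 to 2.06 in WT-High. The epithelial marker Epcam read 10.1 to 10.5 on the 14 arrays. In High cells it was the least changed of 11 epithelial markers, all lower in Atg7KO than in WT (median -0.22). Lgr5 read 4.65 to 6.25 in Low and 8.69 to 9.30 in High cells. Of the defining markers of leukocytes, Ptprc (CD45), Itgax (CD11c), Adgre1 (F4/80), Ms4a1 (CD20) and Cd3g were below the filter level on 14 of 14 arrays. Cd79a was over it on 1 array and Cd3e on 6, at 4.23 or less. In all, of 47 leukocyte markers on the array, in the lists given further on, 12 were under the filter level on 14 of 14 arrays and 14 were over it on all of them. The 14 include Cx3cr1 (5.38 to 6.84), Lcp1 (5.69 to 7.47), Gzma (5.35 to 7.95), Cd68, Tyrobp, C1qa, Itgam, Cd8a and Mzb1. Because each array holds the RNA of many cells, fewer cells that make a transcript and less of it per cell cannot be told apart.

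In WT, all 8 genes were higher on each of the 3 High arrays than on any of the 4 Low arrays. For the 7 tested genes the difference between the gates was 0.85 to 2.02, which is 1.80-fold to 4.06-fold, with a median of 1.09 against 0.03 over all genes tested. Such a gap, with High above Low, was found in 7 of these 7 genes and in 9.97% of all genes tested. The gap was 0.02 for H2-Ab1, 0.06 for H2-DMb1 and 0.09 for Cd74, and 0.20 to 0.53 for the rest of the 7. H2-DMb2 was not tested, and its values on WT-High-412 and all WT-Low arrays lay below the filter level. The unadjusted p was under 0.05 for 7 of 7 genes, all higher in High cells, as for 8.88% of all genes. Adjusted over all genes, 1 of the 7 passed, Ciita, and 1.22% of all genes were called higher. The adjusted p of the other 6 ran from 0.0633 to 0.283.

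**Figure D1:**
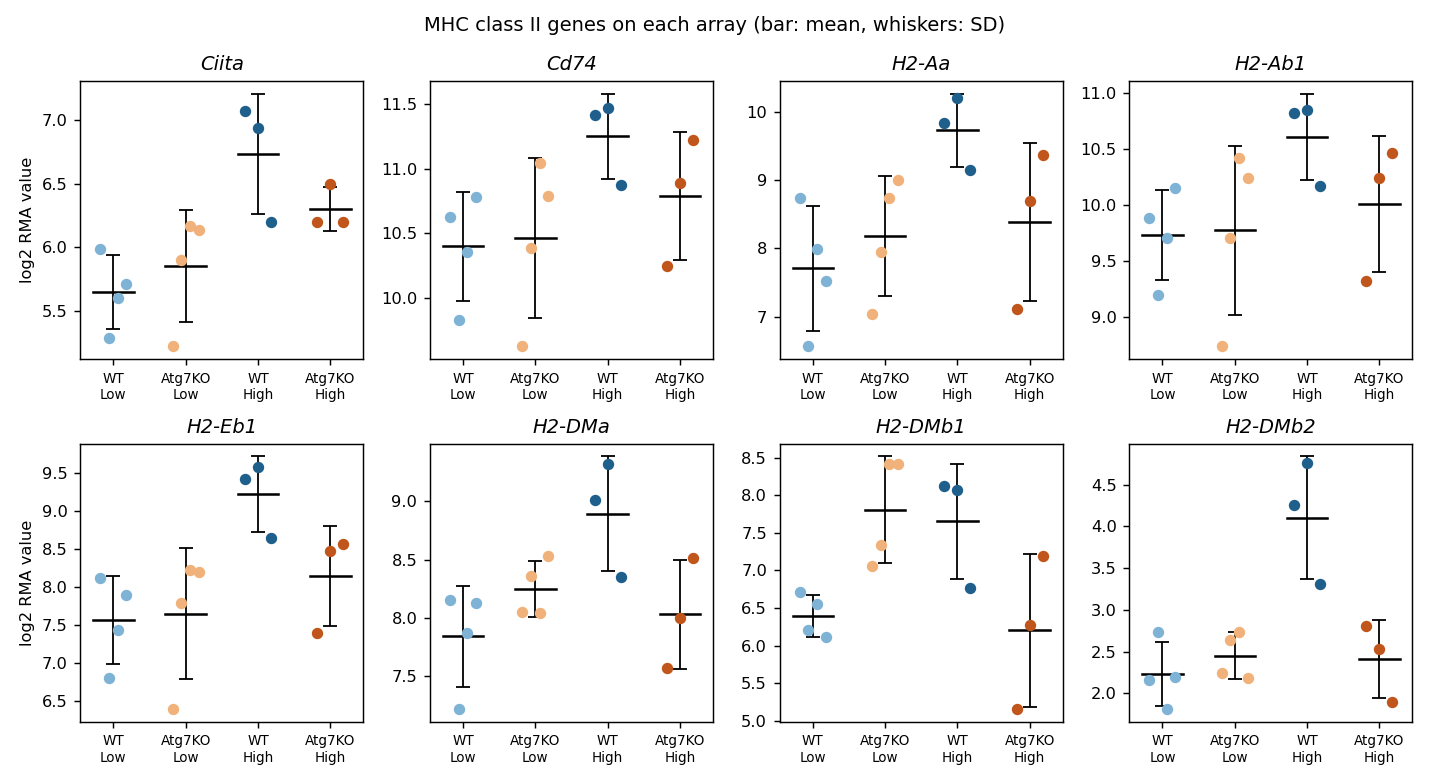
Log2 RMA value (y axis) of the 8 MHC class II genes on each array, by group (x axis). Points are arrays, the bar is the group mean and the whiskers are 1 SD (n = 4 in Low, n = 3 in High), and y axes differ between genes. The WT-High points lie above the WT-Low points in all 8 panels, and H2-DMb1 is the gene whose Atg7KO-Low points lie above all WT-Low points.

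Ciita, the coactivator of the others, read 7.07, 6.94 and 6.19 in WT-High. In WT-Low it read 5.99, 5.28, 5.60 and 5.71. The groups do not overlap, but WT-High-412 stands 0.21 above WT-Low-341. Ciita thus rose by 1.09 (SE 0.26, adjusted p = 0.0385), a 2.13-fold higher level in High cells, and the 95% interval of the difference was 0.55 to 1.64. Without WT-High-411 the difference was 0.99 (adjusted p = 0.170) and without WT-High-388 it was 0.92 (adjusted p = 0.151). Without WT-Low-407, WT-Low-409 or WT-Low-411 Ciita was not called either (adjusted p = 0.0875, 0.0943 and 0.0589).

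Atg7KO cells showed a smaller step in Ciita. It read 6.20, 6.50 and 6.20 in Atg7KO-High. In Atg7KO-Low it read 5.22, 5.90, 6.16 and 6.13. The High arrays were above the Low arrays here too, by 0.04 at the closest, a gap found in that direction in 10.8% of all genes. The mean difference was 0.45 (SE 0.26, adjusted p = 0.283). Between genotypes Ciita differed by -0.44 (SE 0.27, adjusted p = 0.444) in High and by 0.21 (SE 0.24, adjusted p = 0.885) in Low cells, Atg7KO against WT. Neither pair of groups was separate, and the knockout effect did not differ between the gates beyond the error (-0.64, SE 0.36, adjusted p = 0.424).

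The boxes through which Ciita acts can be read in the promoters of several of the genes. RefSeq's promoter table (GRCm38.p6) held 5 of the 8 genes: H2-DMa, H2-DMb1, H2-DMb2, H2-Aa and H2-Eb1. The 250 bases before each start were searched on both strands for AACNGATG, a core of the X box, for TGACGTCA, the X2 box in the form of a cAMP response element, and for GATTGG, the Y box. These letters were chosen with the promoters in view. They occur in 1.98%, 1.55% and 14.6% of the 32851 promoters in the table. The X core followed by GATTGG on the same strand at a distance of 15 to 30 bases was found in 5 promoters (0.0152%), namely H2-DMb1, H2-DMb2, H2-Eb1, the further class II gene H2-Eb2, and BC051142. Printed below are the 3 of the 8 genes that hold this pair, and H2-Aa with its X2 and Y letters, to show how alike the stretches are. Capitals mark the X core (the X2 letters in H2-Aa) and then GATTGG.
H2-DMb1, chr17:34153085-34153144, plus strand: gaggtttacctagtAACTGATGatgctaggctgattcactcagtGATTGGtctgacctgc
H2-DMb2, chr17:34145114-34145173, plus strand: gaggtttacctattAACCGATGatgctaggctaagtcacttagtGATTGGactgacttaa
H2-Eb1, chr17:34305764-34305822, plus strand: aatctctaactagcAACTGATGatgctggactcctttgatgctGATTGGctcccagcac
H2-Aa, chr17:34287857-34287911, minus strand: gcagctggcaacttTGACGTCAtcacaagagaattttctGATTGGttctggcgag

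The X core and GATTGG lie 22 bases apart in H2-DMb1 and H2-DMb2 and 21 in H2-Eb1, and the X2 letters and GATTGG of H2-Aa lie 17 apart. The stretches of H2-DMb1 and H2-DMb2 share 51 of 60 bases, from 106 to 47 bases before the start of H2-DMb1 and from 135 to 76 before that of H2-DMb2. Of the 2 promoters of H2-DMa, 1 held GATTGG and neither held the other letters. A match is a description of the sequence, and these data do not measure binding.

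Among the chain genes the step between the gates in WT was steepest for H2-Aa, the alpha chain of I-A. It read 9.83, 10.20 and 9.14 in WT-High and 8.74, 6.56, 8.00 and 7.52 in WT-Low. The difference of 2.02 (SE 0.58) had an unadjusted p of 0.00341 and missed the threshold over all genes (adjusted p = 0.0850). The groups do not overlap, and WT-Low-341 is the Low array nearest to the High ones. It read 7.04, 7.95, 8.73 and 9.00 in Atg7KO-Low and 7.11, 8.69 and 9.36 in Atg7KO-High. These Atg7KO groups interleave, with a difference of 0.21 between the gates (SE 0.58, adjusted p = 0.857). Against WT, Atg7KO differed by -1.34 in High cells (SE 0.62, adjusted p = 0.311) and by 0.48 in Low cells (SE 0.54, adjusted p = 0.883). The difference in High cells was -0.70 without Atg7KO-High-356 and -1.82 without Atg7KO-High-386. That in Low cells was 0.10 without WT-Low-407 and 0.86 without Atg7KO-Low-356.

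H2-Eb1, the beta chain of I-E, read 9.42, 9.58 and 8.65 in WT-High and 8.11, 6.81, 7.43 and 7.90 in WT-Low. The difference between these gates was 1.65 (SE 0.44, adjusted p = 0.0633), and WT-High-412 was nearest to the Low arrays. In Atg7KO-High it read 7.39, 8.47 and 8.57, and all 3 lay below the 3 WT-High arrays, by 0.08 at the closest. H2-Eb1 was the 1 tested member with such a gap between the genotypes in High cells, a gap in that direction being found in 15.2% of all genes, and it differed by -1.07 (SE 0.47, adjusted p = 0.292). In Atg7KO-Low it read 6.40, 7.79, 8.22 and 8.20, and the difference from WT-Low was 0.09 (SE 0.41, adjusted p = 0.980).

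H2-Ab1, the beta chain of I-A, had narrower steps. It read 10.82, 10.85 and 10.17 in WT-High and 9.88, 9.20, 9.71 and 10.15 in WT-Low. The groups are separate by 0.02, between WT-High-412 and WT-Low-411, and differed by 0.88 (SE 0.38, adjusted p = 0.283). In Atg7KO-High it read 9.32, 10.24 and 10.47 and in Atg7KO-Low 8.74, 9.70, 10.42 and 10.24. Between genotypes the difference was -0.60 in High (SE 0.40, adjusted p = 0.472) and 0.04 in Low cells (SE 0.35, adjusted p = 0.988), and the groups overlapped in both gates.

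Cd74, the invariant chain, followed the chain genes closely. In WT-High it read 11.41, 11.47 and 10.87, against 10.63, 9.83, 10.36 and 10.78 in WT-Low, a difference of 0.85 (SE 0.33, adjusted p = 0.217). In Atg7KO-High it read 10.25, 10.89 and 11.22, and in Atg7KO-Low 9.63, 10.39, 11.04 and 10.79. Atg7KO differed from WT by -0.46 in High (SE 0.35, adjusted p = 0.522) and by 0.06 in Low cells (SE 0.30, adjusted p = 0.980), with overlap in both. The 95% intervals of these differences were -1.21 to 0.28 and -0.58 to 0.71.

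Of the 7 tested genes H2-DMb1 had the widest differences between the genotypes in both gates. H2-DMb1, a beta chain of the peptide exchanger, read 8.12, 8.07 and 6.77 in WT-High and 5.15, 6.27 and 7.19 in Atg7KO-High. The groups overlap, since Atg7KO-High-386 is above WT-High-412, and differed by -1.45 (SE 0.49, adjusted p = 0.205). In Low cells the order was turned round. There it read 7.05, 7.34, 8.42 and 8.42 in Atg7KO-Low, against 6.72, 6.20, 6.55 and 6.11 in WT-Low. All 4 Atg7KO-Low arrays were above all 4 WT-Low arrays, a gap found in that direction in 1.71% of all genes tested. The difference was 1.41, or 2.66-fold (SE 0.43, 95% interval 0.50 to 2.32), and it did not pass over all genes (adjusted p = 0.522).

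The knockout effect on H2-DMb1 therefore had opposite signs in the gates, and the test of that difference gave -2.86 (SE 0.65, 95% interval -4.26 to -1.47). Its unadjusted p of 0.000567 ranked 50 of 15873 genes, and its adjusted p was 0.176, so it was not called. Leaving out any single array kept the signs of both effects. Without Atg7KO-High-356, the lowest array, the difference in High cells was -0.93 (adjusted p = 0.548), and without Atg7KO-High-386 it was -1.94 (adjusted p = 0.0944). The difference in Low cells stayed between 1.21 and 1.66 as each array was left out.

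Seen between the gates, H2-DMb1 was higher in High than in Low cells of WT by 1.26 (SE 0.46, adjusted p = 0.190) and fell by 1.60 in Atg7KO (SE 0.46, adjusted p = 0.0385). The second of these differences was called, although the groups overlap, since Atg7KO-High-386 at 7.19 is above Atg7KO-Low-356 at 7.05. It was the single member called between the gates of Atg7KO, of 7 tested, where 6.44% of all genes were called lower. Without Atg7KO-High-356 it was -1.08 (adjusted p = 0.187), and without Atg7KO-High-348, Atg7KO-Low-387 or Atg7KO-Low-386 it was not called either (adjusted p = 0.0960, 0.0906 and 0.0988). With only the Atg7KO arrays in the fit its adjusted p was 0.0852. These comparisons share arrays with those of the genotypes and are not separate evidence.

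H2-DMa, the alpha chain that pairs with either beta chain, had the same signs at a smaller size. It read 9.01, 9.32 and 8.35 in WT-High and 7.57, 8.00 and 8.51 in Atg7KO-High. The groups overlap, and the difference was -0.86 (SE 0.30, adjusted p = 0.211). In Low cells it read 8.05, 8.36, 8.04 and 8.54 in Atg7KO and 8.15, 7.22, 7.87 and 8.13 in WT, a difference of 0.40 (SE 0.26, adjusted p = 0.779). The effect in High minus that in Low was -1.27 (SE 0.40, adjusted p = 0.249). Between the gates H2-DMa was higher in High cells of WT by 1.05 (SE 0.28, adjusted p = 0.0633), and in Atg7KO it differed by -0.22 (SE 0.28, adjusted p = 0.671).

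H2-DMb2, the other beta chain, was read over the filter level in WT-High-388 (4.25) and WT-High-411 (4.75). WT-High-412 read 3.31, and the other 11 arrays read 1.81 to 2.81. The WT-High arrays were thus above every other array, but 12 of 14 values lie below the filter level. In a fit of all 24675 named genes, without the filter, H2-DMb2 was called higher in WT-High than in WT-Low (adjusted p = 0.0117). In that comparison 324 of the 24675 genes were called in either direction. The values of WT-High-412 and of all WT-Low arrays behind the call were below the filter level. H2-DMb2 was not called in the other comparisons. No size is given for these differences, because all values in WT-Low and in both Atg7KO groups are below the filter level and give only a bound. H2-DMb1 and H2-DMb2 are neighbouring copies of one gene, so their probe sets may each read some RNA of the other. The probe sequences were not used here, and this was not tested.

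**Figure D2:**
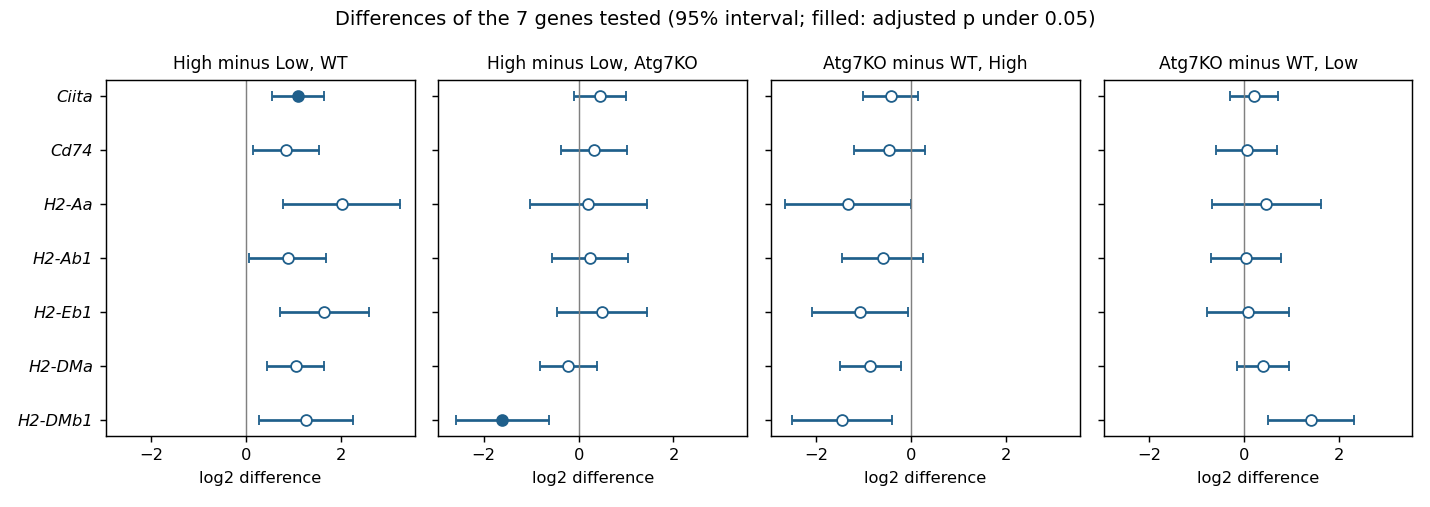
Log2 difference (x axis) of the 7 tested genes in 4 comparisons, with the 95% interval from the fit. Filled points passed at adjusted p under 0.05 over all genes: Ciita between the gates in WT, and H2-DMb1 between the gates in Atg7KO. H2-DMb1 lies on opposite sides of 0 in the panels for High and Low cells.

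Across the genotypes in High cells the 7 tested genes were lower in Atg7KO, by 0.44 to 1.45 on the log2 scale, with a median difference of -0.86 against -0.03 over all genes, of which 53.8% were lower. None of the 7 was called by limma, where 0.0126% of all genes were. The 4 genes H2-DMb1, H2-DMa, H2-Eb1 and H2-Aa were lower at an unadjusted p under 0.05, as were 9.88% of all genes. As single arrays were left out, the median lay between -1.13 (without WT-High-412) and -0.63 (without Atg7KO-High-356). Without Atg7KO-High-356, H2-Ab1 differed by -0.26, Cd74 by -0.20 and H2-Eb1 by -0.70. Ciita differed by -0.27 without WT-High-388 and by -0.71 without WT-High-412. In Low cells the 7 differences were positive, with a median of 0.21 against 0.00 over all genes, of which 50.3% were higher. That median was 0.09 without WT-Low-407 and 0.47 without Atg7KO-Low-356. Of these 0 were called by limma (0.00630% of all genes) and 1, H2-DMb1, was higher at an unadjusted p under 0.05, as were 3.86% of all genes. Apart from H2-DMb1, the Low differences were 0.04 to 0.48, and their intervals ran from -0.79 to 1.62 at the widest.

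The test of the effect in High minus that in Low gave negative values for all 7 genes, from -0.53 for Cd74 to -2.86 for H2-DMb1, with a median of -1.16 against -0.03 over all genes. By limma 0 of 7 were called (0.00630% of all genes), and 3 were lower at an unadjusted p under 0.05 (H2-DMb1, H2-DMa and H2-Aa), as were 8.49% of all genes. Between the gates of Atg7KO the median of the 7 genes was 0.24 against 0.02 over all genes, with 5 higher and 2 lower in High cells. Those 2 were H2-DMa and H2-DMb1. That median turned to -0.11 without Atg7KO-Low-356 and was 0.58 without Atg7KO-High-356. Because the comparisons share groups, these medians are not independent of each other.

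Arrays within a group also differed. WT-High-412 was the lowest of its group for 8 of 8 genes, and Atg7KO-High-386 was above it for 6 of 8. Atg7KO-High-356 and Atg7KO-Low-356 were each the lowest of their group for 6 genes, and WT-Low-407 was the lowest of its group for 6. The mean deviation of the 7 tested genes from their group means was -0.84 in Atg7KO-Low-356 and -0.69 in Atg7KO-High-356, and 0.48 and 0.52 in Atg7KO-Low-386 and Atg7KO-High-386. It was 0.15 in WT-Low-411 and 0.33 in WT-High-411.

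**Figure D3:**
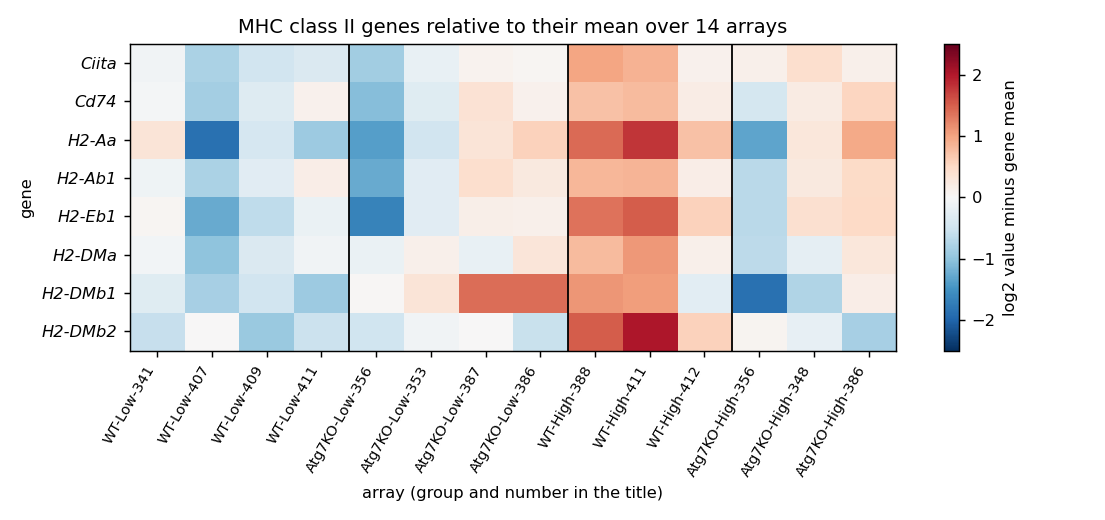
Log2 value of each of the 8 genes (rows) minus its mean over the 14 arrays, by array (columns, black lines between groups). The colour scale runs from -2.5 (blue) to 2.5 (red). WT-High-388 and WT-High-411 are red for all 8 genes, and in Atg7KO-Low-387 and Atg7KO-Low-386 H2-DMb1 is the reddest gene.

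The genes varied together over the 14 arrays, which share groups and may share mice. Pearson's r lay between 0.899 and 0.989 for the 6 pairs among H2-Aa, H2-Ab1, H2-Eb1 and Cd74, and was highest between H2-Ab1 and Cd74. With each group's mean taken off, these pairs had r of 0.862 to 0.990. H2-DMb1 had r of 0.412 to 0.700 with the other 6, which was 0.658 to 0.869 with the group means taken off. Its lowest r was with Ciita in both cases. With H2-DMa the value was lower with the group means off (0.674 against 0.700), and with the other 5 genes it was higher.

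Among genes outside the set, those most like the mean of the 7 members over the 14 arrays were Psmb8 (r = 0.926), an immunoproteasome subunit, and the class I chains H2-D1 (0.916), H2-K1 (0.903) and H2-Q7 (0.884). They were followed by Tpm2 (0.859), a tropomyosin, and Nos2 (0.837), the inducible nitric oxide synthase. With the group means taken off, Psmb8 (0.919), H2-K1 (0.900) and Xdh (0.898), the xanthine dehydrogenase, came first, and Tap1 (0.840) was the tenth. H2-DMb1 alone was most like Parp9 (0.869), Tap1 (0.859) and Chmp4b (0.850), and Ciita alone was most like Tpm2 (0.905), Mtss2 (0.891) and Cbs (0.856). These rankings are over all genes tested and describe likeness only.

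Lists of other genes of the pathway were read beside these. The list of transcription factors and cofactors of MHC class II genes had 14 tested of 16, among them the RFX and NF-Y subunits. Its median was 0.18 between the gates in WT and -0.28 between the genotypes in High cells, with 12 of 14 lower and 0 called. Over all genes 53.8% were lower between those genotypes and 0.0126% were called. Irf8, an interferon regulatory factor of myeloid and B cells, was called between the gates of Atg7KO and fell by 0.78 (SE 0.21, adjusted p = 0.0298). There 6.44% of all genes were called lower. Irf8 read 6.51, 6.55 and 6.68 in Atg7KO-High and 7.03 to 7.98 in Atg7KO-Low. In WT Irf8 read 7.06 to 7.68 in High and 6.72 to 7.07 in Low cells, so that its effect in High minus that in Low was -1.22 (SE 0.30, adjusted p = 0.195), with signs as for H2-DMb1.

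Proteases and other factors of peptide and invariant chain processing numbered 9, all tested. Ctss (cathepsin S), which trims the invariant chain, differed by 0.45 between the gates in WT (SE 0.15, adjusted p = 0.140) and by -0.16 between the genotypes in High cells (SE 0.16, adjusted p = 0.648). Ifi30, the lysosomal thiol reductase GILT, fell by 0.72 from Low to High in Atg7KO (SE 0.18, adjusted p = 0.0194). It was the 1 gene of the list called, where 6.44% of all genes were called lower. In WT its difference was -0.32 (SE 0.18, adjusted p = 0.442). The median of the list was -0.24 between the genotypes in High cells, with 9 of 9 lower and 0 called, where 53.8% of all genes were lower.

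Of the genes of turnover and costimulation, such as Marchf1, Cd83, Cd40 and Icosl, 7 of the 11 on the array were tested and 0 were called in any of the 5 comparisons. Their medians lay between 0.00 and 0.06. Pdcd1lg2 (0.22, SE 0.22) and Cd40 (-0.15, SE 0.24) had the smallest p for the effect in High minus that in Low. Cd80, Cd86, Cd274 and Il10ra did not pass the filter. Of further class II chains, H2-Ob and H2-Eb2 were tested and 0 were called, while H2-Oa and H2-Ea, the alpha chain of I-E, were under the filter level on 14 of 14 arrays. Some mouse haplotypes make no I-E alpha chain, and the haplotype of these mice is not given.

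Genes of the interferon gamma response numbered 23 tested of 24 on the array. Between the gates in WT 20 of 23 were higher in High cells, as the class II genes were, with a median of 0.36 and 0 called. Over all genes 54.7% were higher there. Between the gates of Atg7KO 16 of 23 were lower in High cells, as were 47.9% of all genes, with a median of -0.25. In High cells 22 of 23 were lower in Atg7KO, with a median of -0.43, 0 called and 7 lower at an unadjusted p under 0.05. Over all genes 53.8% were lower there, 9.88% at an unadjusted p under 0.05, and 0.0126% were called. In Low cells 20 of 23 were higher, as were 50.3% of all genes, with a median of 0.18 and 0 called. The effect in High minus that in Low was negative for 23 of 23 and for 52.9% of all genes, with a median of -0.47 and 0 called. Tap1, a peptide transporter for class I, read 6.19, 6.25 and 7.01 in Atg7KO-High and 7.36, 7.74 and 6.88 in WT-High, and differed by -0.84 (SE 0.27, adjusted p = 0.187). Irgm1, an immunity-related GTPase, was the 1 gene of the list called in any comparison. It fell by 0.81 from Low to High in Atg7KO (SE 0.24, adjusted p = 0.0480), where 6.44% of all genes were called lower.

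Psmb8, Psmb9, Tap1, Tap2 and Tapbp also lie near the class II genes on the chromosome, in a list of 14 neighbours. For the effect in High minus that in Low, Tap1 (-1.20, SE 0.36) and Tapbp (-0.95, SE 0.32), both of class I loading, had the smallest p of that list. That list had a median of -0.46 between the genotypes in High cells, with 10 of 14 lower and 0 called, and 0.08 in Low cells. The share of all genes lower in High cells was 53.8%. Neighbours with other functions differed in both directions in High cells, as in the case of Daxx (-0.46, SE 0.22, adjusted p = 0.335) and Ager (0.68, SE 0.28, adjusted p = 0.262). These examples were picked after their values were seen. Ager read 6.91, 5.78 and 5.63 in Atg7KO-High and 5.62, 5.39 and 5.26 in WT-High, so Atg7KO-High-356 stands apart.

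**Figure D4:**
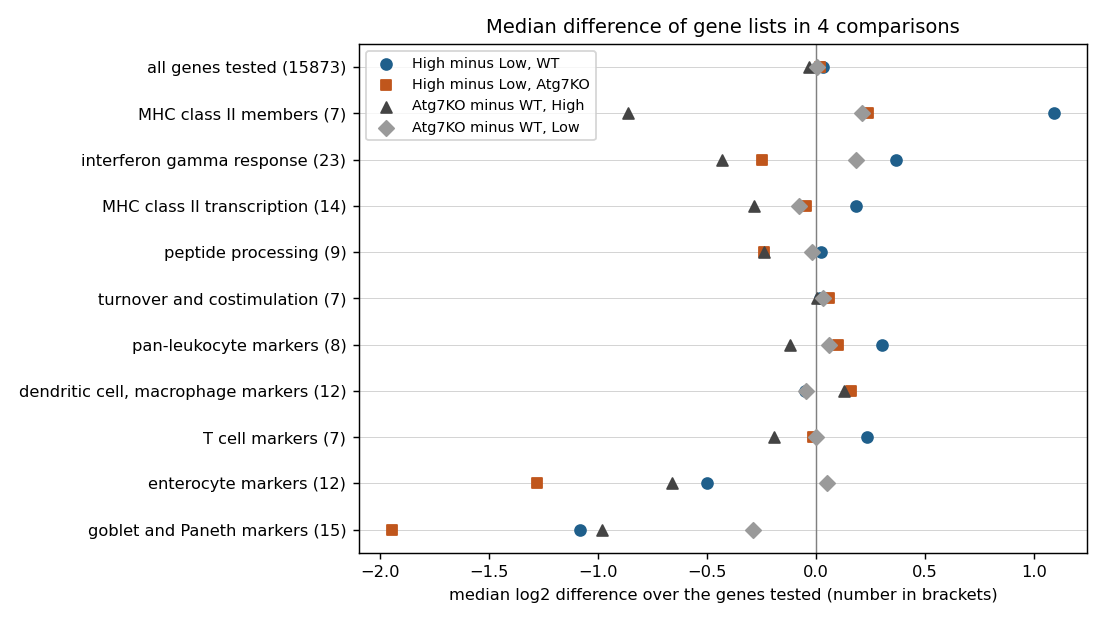
Median log2 difference (x axis) of the 7 tested class II genes, of pathway lists and of marker lists in 4 comparisons, with the number of genes tested in brackets and all genes tested at the top. The class II genes had medians of 1.09 between the gates in WT and -0.86 between the genotypes in High cells, and the goblet and Paneth markers had the lowest medians of the lists drawn.

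Markers of other cells were read beside these results. Markers of dendritic cells and macrophages, cells rich in class II, had 12 tested of 17 on the array. The mean level per array of all 17 was 4.05 to 4.29 in WT-High and 4.19 to 4.41 in Atg7KO-High. It was 4.05 to 4.27 in WT-Low and 4.01 to 4.21 in Atg7KO-Low. The median difference of the 12 tested was 0.13 between the genotypes in High cells and -0.05 between the gates in WT, with 0 called. Both medians are small, with signs opposite to those of the class II genes. The mean levels lie close to the arrays' filter levels of 3.75 to 3.98. The part of dendritic cells and macrophages in the class II results was not tested. Pan-leukocyte markers had 8 tested of 10. The mean level of all 10 was 4.30 to 4.41 in WT-High and 4.21 to 4.38 in Atg7KO-High. It was 4.04 to 4.25 in WT-Low and 3.92 to 4.25 in Atg7KO-Low. The median of the 8 tested pan-leukocyte markers was 0.30 between the gates in WT and -0.12 between the genotypes in High cells, signs as for the class II genes. In those comparisons 0 were called, and their part in the class II results was not tested. Lcp1, an actin bundling protein, was called between the gates of Atg7KO (0.79, adjusted p = 0.0482), where 4.48% of all genes were called higher. For B and plasma cells 3 of 9 markers were tested, for T cells 7 of 11 and for stromal and endothelial cells 5 of 10, with 0 called. Medians follow in the order between the gates in WT, then between the genotypes in High cells. The T cell list had 0.23 and -0.19, signs as for the class II genes. The B and plasma cell list had -0.20 and 0.21 and the stromal and endothelial list -0.05 and 0.13, the opposite signs. The part of these cells was not tested.

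Levels of markers of epithelial cell types differed between the groups as well. Enterocyte markers, 12 tested of 12, had a mean level of 7.75 to 9.09 in WT-High, 7.63 to 7.78 in Atg7KO-High, 8.81 to 9.52 in WT-Low and 8.53 to 9.84 in Atg7KO-Low. Goblet and Paneth markers, 15 of 15, had a mean level of 9.93 to 9.99 in WT-High, 8.18 to 9.48 in Atg7KO-High, 10.9 to 11.4 in WT-Low and 10.3 to 10.9 in Atg7KO-Low. Between the gates in WT both lists had negative medians (-0.50 and -1.08, with 1 and 6 genes called lower, as were 1.22% of all genes), where that of the class II genes was positive. Between the gates of Atg7KO 8 enterocyte markers were called lower in High cells, among them Fabp1, Krt20, Sis and Rbp2, and 12 goblet and Paneth markers, among them Clca1, Zg16, Atoh1 and Fcgbp, where 6.44% of all genes were called lower. The epithelial genes Krt19, Cdh17 and Krt8 were called lower there too (-0.81, -0.59 and -0.58). Between the genotypes in High cells 11 of 11 epithelial markers were lower in Atg7KO, as were 53.8% of all genes. Their differences ran from -0.48 for Krt19 to -0.04 for Epcam, with a median of -0.22 against -0.03 over all genes and 0 called. The part of this difference in the class II results was not tested. Between the genotypes in High cells the enterocyte list and the goblet and Paneth list had negative medians (-0.66 and -0.98, with 0 called), as the class II genes had, and their part in that result was not tested. Lgr5 stem cell markers, 14 of 14, had a median of 0.05 between the genotypes in High cells, and 13 of 14 in WT and 11 of 14 in Atg7KO were called higher in High than in Low cells, as were 1.22% and 4.48% of all genes. With the SD of each array as a covariate, the median of the class II genes between the genotypes in High cells was -0.90, against -0.86 without it. The SD did not overlap between these groups, so this fit cannot tell array spread and genotype apart.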

How the data were processed

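The authors deposited log2 values, 1 per probe set and array, and the submitters' processing notes name RMA and Affymetrix Expression Console, without versions. RMA corrects background, quantile normalizes and summarises probes, which can narrow differences. RNA was amplified from 1 ng per sample, per the labels' protocols. Of 25429 probe sets, 24675 had 1 gene symbol in the platform annotation, 0 had several, and 754 without a symbol were left out.

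In R 4.3.3, limma 3.58.1 (lmFit, eBayes) estimated the 4 group means from all arrays together, with 10 residual and 4.54 prior degrees of freedom. P-values are two-sided, adjusted by Benjamini-Hochberg over 15873 genes and called under 0.05. SE and 95% intervals come from this fit, which was tested on simulated data. An SD over arrays measures the spread between samples, whose number limits the precision.

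The 8 genes were taken in full. From each list the text names up to 4 genes called, or otherwise, for pathway lists, the 2 with the smallest p for the difference between gates, plus defining markers and the genes most alike by Pearson's r. Ctss, Daxx, Ager and the genes named only as list content were added after their values were seen. The genes and lists were chosen with earlier results of these data known. Promoters come from RefSeq (GRCm38.p6). The alternatives are given in the closing section.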

Additional observations from a re-analysis of the deposited data

How the results depend on the processing

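Each result was recomputed under up to 25 alternatives, 14 of which leave out an array. Over 35 gene results, 868 values were compared: 822 kept direction and side of the threshold, 19 lost a call, 8 gained one and 19 changed sign. In EGFP high cells the 7 genes stayed lower in Atg7KO and uncalled under all 25 (median -1.13 to -0.63), and the knockout effect in High minus that in Low stayed negative for all 7 under 24.

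Of the 7 class II genes that passed the filter, the number called between the gates in WT was 1, and became 3 with only those groups in the fit or with a strict filter (mean at or above the 60th percentile), 4 with array weights, and 0 with no filter (H2-DMb2, tested only there, was called), with cyclic loess or without the 2 arrays of narrowest spread, WT-Low-411 and Atg7KO-High-356. It was 0 to 2 as single arrays were left out. The number of all genes called moved with the setting too, so these counts do not describe the class II genes alone. With array weights Ciita passed at a limma unadjusted p of 0.00190 (adjusted p = 0.0331), against 0.000713 (adjusted p = 0.0385) without. The 1 called between the gates in Atg7KO became 0 with only those groups, no filter, quantile normalization again, cyclic loess, array weights, without the narrowest arrays or with the SD of each array as a covariate, and was 0 to 1 as single arrays were left out. Ciita in WT was called under 17 of 25 alternatives (0.91 to 1.36, adjusted p 0.0177 to 0.170), and H2-DMb1 in Atg7KO under 14 of 25 (-2.10 to -1.08, adjusted p 0.0125 to 0.224). The filters change how many genes are tested, and the SE and unadjusted p moved with them. For H2-DMb1 in Atg7KO the limma unadjusted p was 0.00418 with no filter and 0.00321 with the strict filter, against 0.00353. The cause of the changed calls was not tested for any setting.

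The values that changed sign were small and uncalled. In Low cells, Atg7KO against WT, H2-Ab1 was -0.0487 and Cd74 -0.00553 with quantile normalization again, and they were -0.0601 and -0.0563 with cyclic loess. As single arrays were left out, H2-Ab1 ran from -0.17 to 0.39, H2-Eb1 from -0.16 to 0.51 and Cd74 from -0.13 to 0.34. Between the gates in Atg7KO, H2-Ab1 was -0.00962 with the array SD as a covariate, and H2-DMa was 0.0115 without the narrowest arrays. As single arrays were left out, H2-Aa ran from -0.28 to 0.85, H2-Ab1 from -0.11 to 0.58 and H2-DMa from -0.46 to 0.0115.

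With the title number as a replicate block (consensus correlation 0.0732), 1 class II gene was called between the gates in each genotype and 0 in the other comparisons, as without it. Ciita differed by 1.09 (adjusted p = 0.0341) and H2-DMb1 by -1.60 (adjusted p = 0.0306). With each group's mean taken off, arrays of the same number had r of 0.115, 0.182 and -0.0403 over all genes tested. These r cannot show whether the arrays share a mouse. The numbers were not taken as pairs because the labels do not say what they name. For 2 of the 3 numbers the array correlated best with its own number (next highest r -0.0305 and -0.0350, against 0.144 for WT-Low-411). That is a hint from the data and not the design. Taking off the mean of a small group makes its arrays deviate in opposite directions, so part of that contrast is built in.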
